A study of Mus musculus with 3 samples.

Results

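Malat1, Neat1, Kcnq1ot1 and Airn are long noncoding RNAs (lncRNAs) known for staying in the nucleus, and they were read here in libraries made from the cytosol. They are 4 of the 55536 annotated genes in the deposited tables and were found by gene symbol. All 4 were chosen by name with their measured levels in these libraries already known, so those levels are given as a description, with no test. The study sequenced total RNA, depleted of ribosomal RNA, from the cytosol of macrophages grown from bone marrow of C57BL/6J mice. All libraries belong to 1 group: the 0 min point of a series with Lipid A at 100 ng/ml, the lipid of the bacterial outer membrane that macrophages sense through TLR4, with no genetic change named. The group holds 3 libraries, labelled biological replicates 1, 2 and 3, each made from 1 µg of RNA, with 26318761, 41897257 and 56290298 counts over genes in that order. Each library has its own biosample and all carry the same donor label, with sex and age not collected, so an SD here may be technical in part. No nuclear fraction and no other time point were analysed here, so no nuclear to cytosolic ratio and no response to Lipid A can be given.

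Malat1 is an abundant lncRNA of nuclear speckles, bodies rich in splicing factors. Neat1 is the scaffold of paraspeckles, another kind of nuclear body: its long isoform is needed to build them, and its short isoform shares the 5′ end but is polyadenylated early. Both genes end in an unusual way. The transfer RNA processing enzyme RNase P cuts the transcript beside a small RNA that resembles a transfer RNA, and the new 3′ end is protected by a triple helix of U-rich and A-rich stretches in place of a poly(A) tail. Kcnq1ot1 and Airn are long antisense RNAs made from the paternal chromosome. Each silences protein-coding genes around it in imprinted domains, Kcnq1ot1 around Kcnq1 and Airn around Igf2r.

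The gene models of these RNAs decide what the counts can show. On mm10 with GENCODE M21, Malat1 (ENSMUSG00000092341.3) lies at chr19:5795690-5802672 on the minus strand and Neat1 (ENSMUSG00000092274.3) at chr19:5824708-5845478 on the same strand, with 22035 bases between them. Each has 4 annotated isoforms, 1 of which is unspliced and covers the whole gene: Malat1-201 with 6983 nt and Neat1-201 with 20771 nt. Kcnq1ot1 (ENSMUSG00000101609.2), at chr7:143203458-143296549 on the minus strand, is annotated as 1 unspliced RNA of 93092 nt. Airn (ENSMUSG00000078247.4), at chr17:12741311-12860136 on the plus strand, spans 118826 bases but is annotated only as 6 spliced isoforms. Their exons cover 3597 bases, 3.03% of the span, so reads from unspliced Airn RNA elsewhere in the gene are not in its counts.

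The shared 3′ element of Malat1 and Neat1 is shown because it marks where each mature RNA is known to end. Each line gives 100 bases read 5′ to 3′ as DNA letters. Capitals mark matches to TTTCTTTTC and TTTTGCTTT, the U-rich stretches, and to GCAAAA, the last bases before the cut, searched on the sense strand. The Malat1 stretch is chr19:5795982-5796081 (minus strand), which closes at position 6691 of Malat1-201 and leaves 292 annotated bases after it. The Neat1 stretch is chr19:5824708-5824807 (minus strand), the very end of Neat1-201.
Malat1-201: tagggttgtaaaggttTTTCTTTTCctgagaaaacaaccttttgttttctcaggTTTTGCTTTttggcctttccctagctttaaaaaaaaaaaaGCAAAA
Neat1-201: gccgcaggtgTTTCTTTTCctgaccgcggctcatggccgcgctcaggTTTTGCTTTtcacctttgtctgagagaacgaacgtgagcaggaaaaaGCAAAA
Of 139316 annotated transcripts of at least 100 nt, 0.243% held the first motif in their last 100 bases, 0.196% the second and 3.27% the third. All 3 motifs stood together in the last 100 bases of 3 transcripts, Neat1-201 and a pair from the keratin-associated protein gene Krtap5-3, and of these only Neat1-201 closed with GCAAAA.

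The short Neat1 isoform ends differently. Neat1-202 has 2 exons and 3004 nt, and its last 60 bases (chr19:5842307-5842366, minus strand) hold AATAAA, the usual polyadenylation signal, in capitals. The last 60 bases annotated for Malat1-201 (chr19:5795690-5795749, minus strand), downstream of the shared element, hold it too. AATAAA stood in the last 60 bases of 27.6% of the same transcripts.
Neat1-202: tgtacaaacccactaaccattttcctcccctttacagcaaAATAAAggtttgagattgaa
Malat1-201: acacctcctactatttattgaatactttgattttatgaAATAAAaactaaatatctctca

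**Figure D1:**
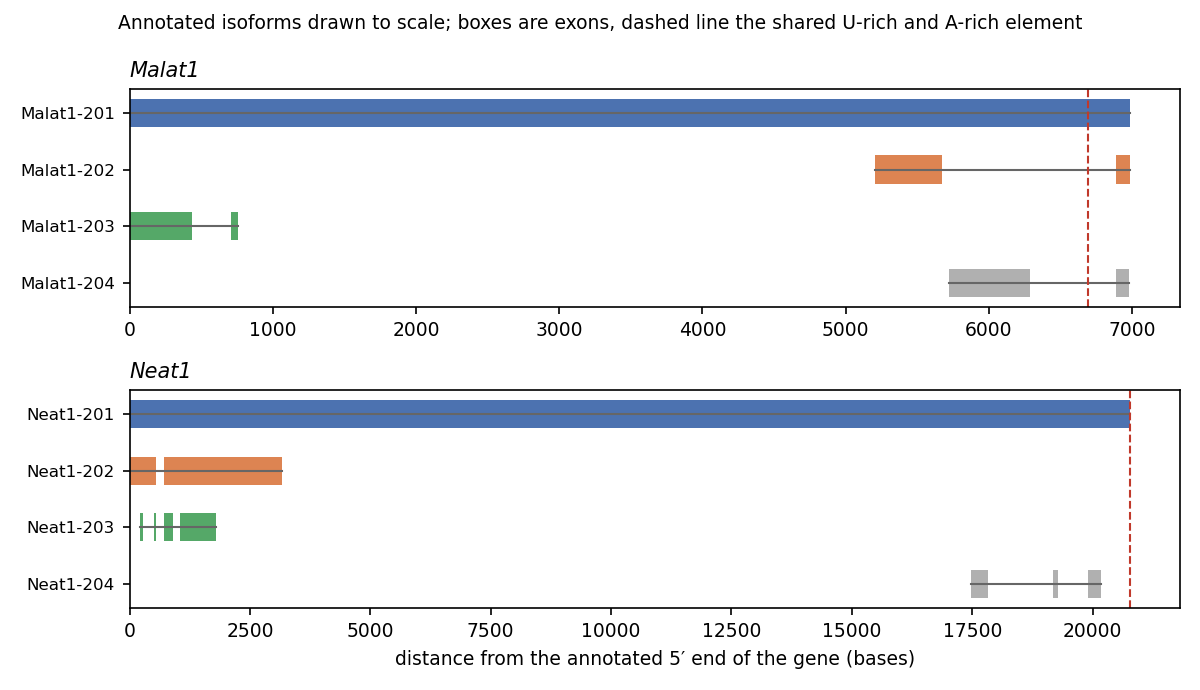
Annotated isoforms of Malat1 and Neat1 on mm10, drawn to scale against the distance in bases from the 5′ end of each gene. Boxes are exons, thin lines introns, and the dashed red line is where the shared 3′ element closes, at position 6691 in Malat1-201 and at the last base of Neat1-201, with the last exons of Malat1-202 and Malat1-204 downstream of it.

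Library 3 stands apart from the others for these RNAs. Malat1 had a level of 224, 207 and 1008 TPM in replicates 1, 2 and 3. TPM scales transcript abundance, corrected for length, to the same total in each library. Replicate 3 was far above the other libraries, which lay within 1.08-fold of each other. The mean over all libraries was 479.5 ± 458 TPM (SD, n = 3), and without replicate 3 it was 215.1 TPM. Behind these levels were 35759, 55102 and 465443 estimated reads. Malat1 thus took 0.136% of all counts in replicate 1 (95% Wilson interval 0.135 to 0.137), 0.132% in replicate 2 (0.130 to 0.133) and 0.827% in replicate 3 (0.825 to 0.829). Intervals cover counting error only, and in bulk RNA a larger number of cells with an RNA and more of it per cell cannot be told apart. By TPM it ranked 165, 151 and 30 among all genes, and 3, 3 and 2 among 10155 long noncoding genes.

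Neat1 had 18.6, 16.7 and 92.5 TPM in replicates 1, 2 and 3, from 3860, 5042 and 37646 estimated reads. The first 2 libraries lay close together and replicate 3 well above both. Its mean was 42.6 ± 43.2 TPM (SD, n = 3), and 17.7 TPM without replicate 3. It ranked 2324, 2183 and 374 among all genes and 23, 19 and 6 among long noncoding genes. Although both RNAs moved several-fold between libraries, the ratio of Malat1 to Neat1 stayed within a narrow range, at 12.0, 12.4 and 10.9 in TPM. In the kallisto-format tables it was 11.6, 12.3 and 9.58. The direction depends on the measure. In replicate 3, against the mean of the others, Malat1 rose less than Neat1 in TPM (4.69 against 5.24-fold). It rose more as a share of counts (6.18 against 5.01-fold).

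Airn and Kcnq1ot1 were far lower. Airn had 0.39, 0.20 and 0.45 TPM, a mean of 0.347 ± 0.131 (SD, n = 3) or 0.295 without replicate 3. Its gene models held only 14, 14 and 42 reads, or 27.2, 27.9 and 168 in the kallisto-format tables. The credibility intervals in the deposited gene tables, 0.364 to 1.08, 0.202 to 0.585 and 0.400 to 0.785 TPM, overlap between the libraries. Kcnq1ot1 had 0.05, 0.02 and 0.15 TPM, a mean of 0.0733 ± 0.0681 (SD, n = 3) or 0.035 without replicate 3. Its reads were more numerous, at 215, 135 and 1557, but were spread over a model of 93092 nt, so fewer molecules are estimated from more reads. TPM in that table is rounded to 2 decimals, which leaves 1 digit for replicates 1 and 2, so the read counts carry the comparison between libraries for this gene.

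The order Malat1, Neat1, Airn, Kcnq1ot1 held in each library, and no neighbours in it overlapped between libraries. Neat1 exceeded Airn by 47.8, 83.5 and 206-fold in TPM within replicates 1, 2 and 3, and Airn exceeded Kcnq1ot1 by 3.0 to 10-fold. In the kallisto-format tables the same ratios were 29.5, 47.4 and 51.1, and 8.90 to 11.0, so the size of these gaps depends on the table. The kallisto-format tables gave lower levels for Malat1, at 90.9, 102 and 358 TPM, and for Neat1, at 7.83, 8.32 and 37.4 TPM. They gave Airn 0.265, 0.176 and 0.731 TPM, higher than the gene table in replicate 3, and Kcnq1ot1 0.0294, 0.0160 and 0.0821 TPM. The order was the same in each library. Malat1 and Neat1 reached a TPM of at least 1 in all 3 libraries, 2 of 4, against 17% of all genes and 1.55% of the long noncoding genes. The genes were picked with these levels known, so nothing is read from that count.

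**Figure D2:**
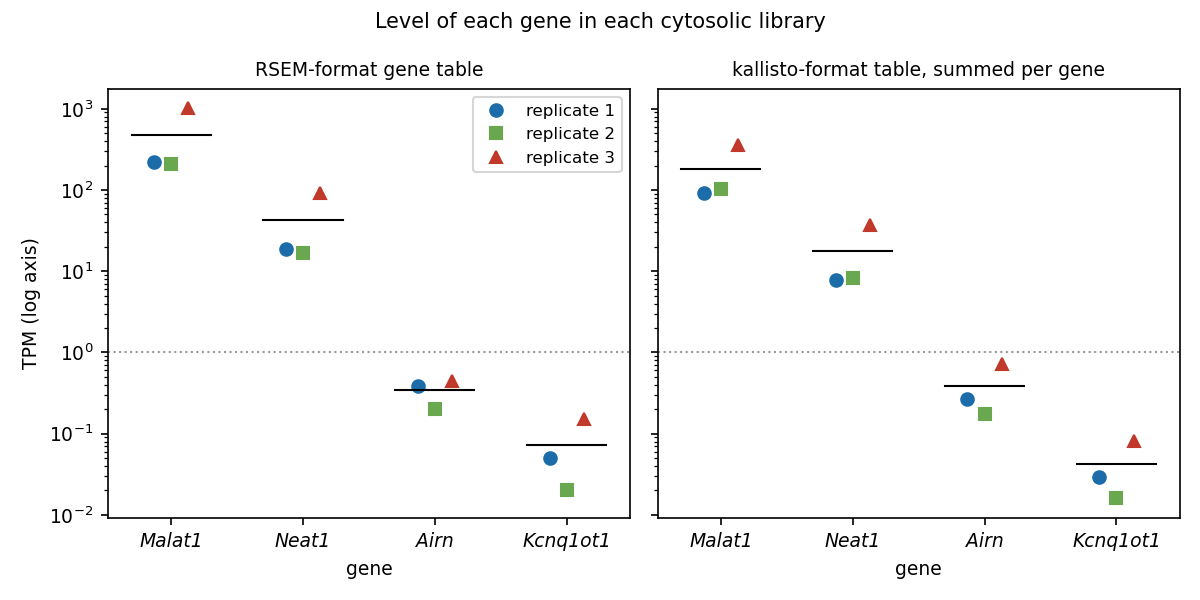
TPM of each gene (log axis) in replicates 1, 2 and 3, from the RSEM-format gene table (left) and summed over transcripts in the kallisto-format table (right); bars are means of 3 libraries and the dotted line is a TPM of 1. Replicate 3 is the highest point for every gene, and Airn and Kcnq1ot1 stay below 1 throughout.

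The difference of replicate 3 was set against all genes on another scale, log2 CPM (counts scaled to library size) after TMM scaling, which corrects for library composition. All 4 genes passed the filter on low counts. Malat1 was 2.69 higher in replicate 3 than the mean of replicates 1 and 2 on this log2 scale (6.46-fold), Kcnq1ot1 2.48 higher (5.59-fold) and Neat1 2.40 higher (5.26-fold). Airn was 0.81 higher (1.76-fold), from its 14, 14 and 42 reads. Thus 3 of 4 were at least 2-fold higher, against 3.04% of the 12413 genes past the filter and 21.1% of the 617 long noncoding genes among them. With kallisto-format counts all 4 passed 2-fold, Airn at 3.36-fold from 27.2, 27.9 and 168 reads. On log2(TPM + 0.1) only Malat1 and Neat1 did. Replicates 1 and 2 each held 47 genes at least 2-fold above the mean of the other libraries, and replicate 3 held 377 above and 20 below. With 1 group of 3 libraries there is no test of this difference.

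Replicates 1 and 2 were alike for Malat1, with log2 CPM of 10.36 and 10.37, and for Neat1, with 7.15 and 6.92. They differed for Kcnq1ot1, which was 1.27 higher in replicate 1 on the log2 scale, and replicate 3 was above both. The SD over the libraries was 1.55 for Malat1, 1.39 for Neat1, 1.57 for Kcnq1ot1 and 0.54 for Airn on the log2 CPM scale, and the median over all genes past the filter was 0.12. Genes within 0.5 of the same mean log2 level had median SDs of 0.14, 0.09, 0.12 and 0.40 in that order. Without replicate 3 the SD was 0.01 for Malat1, 0.16 for Neat1 and 0.90 for Kcnq1ot1.

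Malat1 and Neat1 make up a large part of the long noncoding reads. Together they held 24.3%, 26.2% and 60.2% of all long noncoding counts in replicates 1, 2 and 3. Long noncoding genes in all took 0.620%, 0.548% and 1.48% of counts. Without Malat1 and Neat1 the same share was 0.470%, 0.405% and 0.590%, so replicate 3 was the highest with or without them, by a smaller margin without.

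The annotated isoforms of Neat1 were dominated by the short one. Neat1-202 took 86.9%, 92.6% and 91.9% of the gene's TPM in replicates 1, 2 and 3, a mean of 90.4% ± 3.11 (SD, n = 3). Its level was 16.2, 15.5 and 85.0 TPM, and that of the long Neat1-201 was 1.76, 0.79 and 5.03 TPM, so the short isoform was 9.21, 19.6 and 16.9 times the long one. Both were highest in replicate 3, the short one 5.37-fold and the long one 3.94-fold above the mean of the others in TPM. The kallisto-format tables gave a like share, 90.8% ± 2.60 (SD, n = 3). By counts the short share was lower, at 55.1%, 72.2% and 69.2%, because a read is worth more molecules on a short RNA. The remaining isoforms, Neat1-203 and Neat1-204, had at most 2.32 and 0.18 TPM.

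This split is a model estimate. Cut into 31-base words, Neat1-202 has 2974, none of which is absent from the other Neat1 isoforms, so no word of that length is its own. Neat1-201 has 17098 of its own, 82.7% of its words. The splice junction of Neat1-202, which Neat1-203 also holds, is shown because it separates both from unspliced RNA. It joins exons across a 166-base intron, with chr19:5844925 and chr19:5844758 the exon bases on either side. The first 20 bases of the second exon are in capitals.
Neat1-202 junction: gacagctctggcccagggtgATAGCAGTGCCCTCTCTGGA

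Malat1 reads were assigned almost wholly to the unspliced Malat1-201. It took 94.7%, 93.3% and 96.3% of the gene's counts in replicates 1, 2 and 3, but only 47.4%, 43.5% and 59.7% of its TPM, since each of the other isoforms has at most 656 nt. The gene's TPM was 4.69-fold higher in replicate 3 than the mean of the others and its share of counts 6.18-fold. The effective length that the deposited gene tables give Malat1, which follows the estimated isoform split, was 3378, 3159 and 4198 bases in replicates 1, 2 and 3. Malat1-201 alone had 106, 89.9 and 602 TPM, 6.14-fold higher in replicate 3.

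The deposited tables did not give the same split among the short Malat1 isoforms. Malat1-203, at the 5′ end of the gene, had 40.1, 19.3 and 0.01 TPM in the RSEM-format tables and 37.4, 37.0 and 107 TPM in the kallisto-format tables, so its lowest library in one was its highest in the other. Malat1-202 had 33.7, 43.8 and 210 TPM in the former and 6.12, 9.93 and 14.7 TPM in the latter. Malat1-204 had 43.8, 53.5 and 196 TPM against 5.64, 12.5 and 1.02 TPM. The levels of these isoforms therefore depend on the quantifier. Only 4.75%, 5.71% and 4.15% of the 31-base words of Malat1-202, Malat1-203 and Malat1-204 are absent from the other Malat1 isoforms, and those are the 25, 26 and 26 words that cross the junction. Malat1-202 and Malat1-204 share an acceptor at position 6888 of Malat1-201, downstream of the shared 3′ element. The junctions follow because they are all that marks these isoforms, with the second exon in capitals, and their introns have 1218, 603 and 271 bases.
Malat1-202 junction: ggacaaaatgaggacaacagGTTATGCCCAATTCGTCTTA
Malat1-204 junction: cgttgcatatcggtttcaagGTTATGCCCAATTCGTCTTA
Malat1-203 junction: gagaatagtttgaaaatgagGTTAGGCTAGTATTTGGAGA

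**Figure D3:**
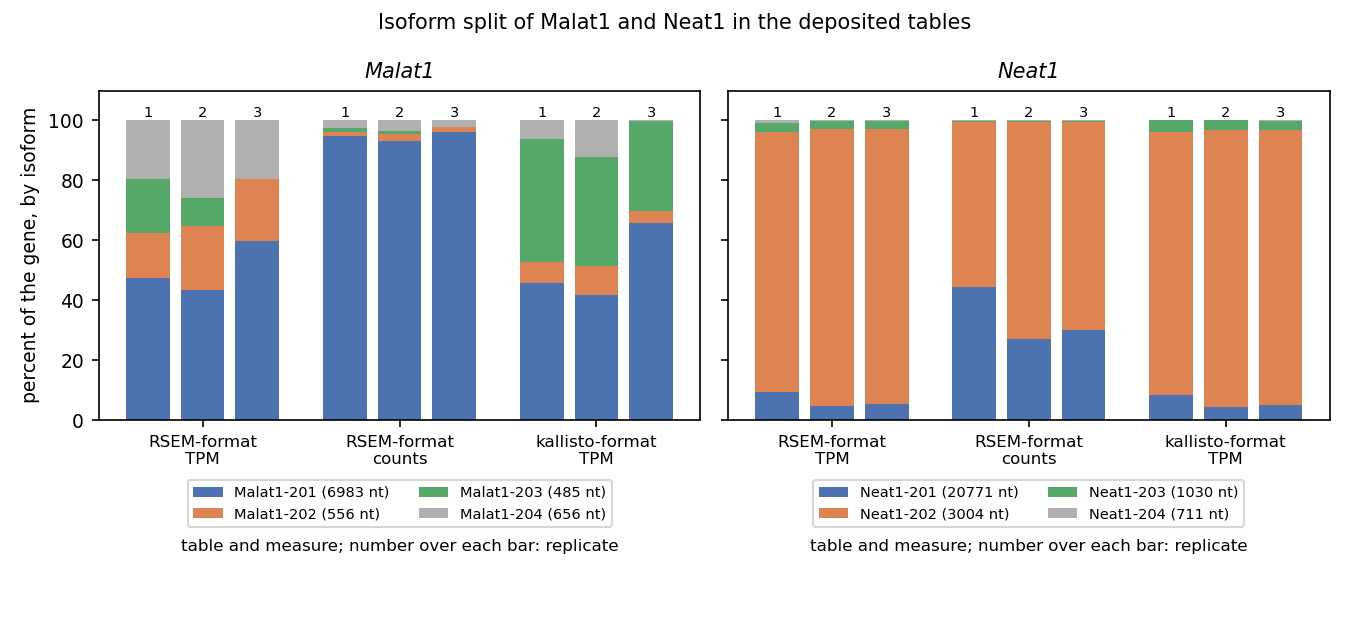
Percent of Malat1 (left) and Neat1 (right) assigned to each annotated isoform in replicates 1, 2 and 3, by TPM and by counts of the RSEM-format tables and by TPM of the kallisto-format tables. Malat1-201 holds at least 93.3% of the counts in each library but 43.5% to 59.7% of TPM, and Neat1-202 holds 86.9% to 92.6% of TPM in the RSEM-format tables.

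Airn counts were led by Airn-201, a 2-exon isoform of 1113 nt, with 12, 11 and 27.9 estimated reads in replicates 1, 2 and 3. It took 74.4%, 71.4% and 62.2% of the gene's TPM, and the other 5 isoforms had at most 11 reads in any library in the RSEM-format tables. The kallisto-format tables gave Airn-201 23.2, 19.9 and 115 reads, and in replicate 3 gave Airn-205 32 and Airn-203 15.0. Kcnq1ot1 has no isoforms to compare. Of its 92893 words, 2.96% also stand in transcripts of other genes, anywhere in the annotation, and 3.77% match the opposite strand of such transcripts. With the library strand not given, reads from either kind of word cannot be placed on Kcnq1ot1 alone. For Malat1-201 these shares were 2.42% and 6.08%, and for Neat1-201 2.15% and 0.731%.

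Genes on the other strand share bases with some of these RNAs, and the strand of the counting is not given in the sources used here, so reads from such pairs cannot be told apart. Inside Malat1, the unclassified gene Gm37376 (chr19:5801941-5802393, plus strand) shares 453 bases with it and held 0, 72.5 and 0 reads in replicates 1, 2 and 3. Of the words of Malat1-203, 28.1% are found reversed in transcripts of other genes. Kcnq1 shares 121 exon bases with Kcnq1ot1 and held 1, 11 and 8 reads, below the 215, 135 and 1557 of Kcnq1ot1 in each library. On the same strand, where knowing the strand would not separate the reads, the miscellaneous RNA Gm27694 in Malat1 held 0 reads in each library. So did Gm27533 and Gm28006 in Neat1, and Gm27505 in Neat1, also on the same strand, held at most 0.81. Gm27395, Gm27389, Gm27803 and Gm27539, small RNA models opposite Kcnq1ot1, held at most 1.77. In replicate 1 the effective length was 0 for Gm27694, Gm27505, Gm28006 and Gm27803 and 4.13 bases for Gm27533. Hardly any read can be assigned to such short models, so nothing is read from their low counts. No annotated exon shares bases with those of Airn. The first exon of each Airn isoform but Airn-205 lies inside the span of Igf2r, on the opposite strand. Reads of unspliced Igf2r RNA there could not be told apart from Airn reads. Frmd8, a protein-coding neighbour of Malat1 and Neat1, differed by -0.12 in replicate 3 on the log2 CPM scale.

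The nuclear bodies these RNAs belong to are built with proteins whose messenger RNAs are exported. Of the messenger RNAs of 14 paraspeckle proteins, all 14 had a TPM of at least 1 in each library, against 17% of all genes. That 17%, or 1.55% of long noncoding genes for noncoding lists, is the background for detection in the lists below too. The lists were chosen with earlier results known, so nothing is read from those detection counts. Of the 14, 0 were 2-fold higher in replicate 3, with differences of -0.20 to 0.51 on the log2 CPM scale. Only 0.926% of the 11235 protein-coding genes past the filter were, so a count of 0 in this and the following lists of protein-coding genes is near the background. Hnrnpk (75.2 TPM on average), Ewsr1 (37.9), Nono (32.1) and Tardbp (28.6) led the list, all coding for RNA-binding proteins. Hnrnph3 was the lowest, at 2.28 TPM. Of the messenger RNAs of 10 speckle proteins, all 10 had a TPM of at least 1 and 0 were 2-fold higher, with differences of -0.07 to 0.68. Srrm2 (40.1 TPM) and Son (39.3), which code for the core proteins of speckles, led them, followed by Srsf2 (33.3) and Srrm1 (20.9), and Pnn was the lowest at 4.66 TPM.

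Of the 3′ processing machinery, Rpph1, the RNA subunit of RNase P, was at 34908, 47178 and 40972 TPM and differed by 0.20 in replicate 3. Elac2, which codes for the enzyme that trims the far end of transfer RNAs, was at 2.49 ± 0.314 TPM (SD, n = 3).

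Around Kcnq1ot1, 6 of 10 genes of the imprinted domain had a TPM of at least 1 in all libraries and 0 of the 8 past the filter were 2-fold higher in replicate 3, where Kcnq1ot1 itself was 5.59-fold higher. Cdkn1c, an inhibitor of cell division imprinted by this domain, had 12.0, 18.1 and 9.08 TPM, highest in replicate 2 and lowest in replicate 3. Its log2 CPM difference of -0.59 was the lowest of the 8, whose median was -0.13 and highest 0.25. Whether Kcnq1ot1 bears on the levels of these genes was not tested. Cd81 (35.0 TPM), Nap1l4 (12.5) and Tspan32 (4.68) were the other leading genes, and Phlda2 was the lowest, with 0, 1 and 0 reads. Around Airn, Igf2r alone of 6 genes reached a TPM of 1. It codes for the receptor that clears insulin-like growth factor 2, and had 19.02, 19.23 and 23.12 TPM. Slc22a2, Slc22a3 and Plg held 0 reads in each RSEM-format gene table, which allows up to 3 counts or 0.114, 0.0716 and 0.0533 CPM, and Mas1 held 1 read in all. Of 8 genes for repressive chromatin enzymes, all 8 had a TPM of at least 1 and 0 were 2-fold higher; Ehmt2 (23.6 TPM), a histone methyltransferase, led them.

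Other noncoding RNAs were compared with the 4 by lists. Of 14 further nuclear noncoding RNAs, Tug1 (17.9 ± 2.18 TPM, SD, n = 3) and Peg13 (3.32 ± 0.43) had a TPM of at least 1 in all libraries, 10 were below 1 in each, and the median was 0.183 TPM. Among the 7 past the filter, 3 were at least 2-fold higher in replicate 3, beside 21.1% of all long noncoding genes. Snhg14, an imprinted antisense RNA, was 2.68 higher on the log2 CPM scale from 13.2, 10.7 and 139 reads. Xist, which silences an X chromosome, was 2.67 higher, from 2.79, 0.98 and 10.1 TPM, and Firre 1.83 higher, from 1.25, 0.93 and 3.55 TPM. Tug1 and Peg13 differed by 0.13 and -0.13. Miat, Meg3, Rian and Mirg were listed at 0 TPM in each RSEM-format gene table, while the kallisto-format tables gave Rian 0.191, 0.439 and 0.230 TPM.

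Noncoding RNAs known to leave the nucleus were read as a list too, likewise chosen with earlier results known. Of 12, 10 had a TPM of at least 1 in all libraries, with a list median of 6.60 TPM led by 2900097C17Rik (60.4), Gas5 (33.1), Zfas1 (9.61) and Snhg8 (9.34), and H19 was lowest at 0.0267. Of the 10 past the filter 0 were 2-fold higher in replicate 3, beside 21.1% of long noncoding genes and 3.04% of all genes past the filter. In so short a list a count of 0 does not set it apart. The median difference was 0.01, with a range of -0.29 to 0.58, against a median of 0.00 over all genes. Neat1 was above the mean of each exported RNA but 2900097C17Rik, at 42.6 against 60.4 TPM, through replicate 3: in replicates 1 and 2 Gas5, with 38.5 and 32.4 TPM, was above Neat1. Of the structured nuclear RNAs, Rn7sk, a regulator of transcription elongation, was 0.82 higher in replicate 3 on the log2 CPM scale. Rmrp, the RNA of a ribosomal RNA processing enzyme, was 0.91 higher, beside the 0.20 of Rpph1. Rn7sk took 0.894%, 1.84% and 2.16% of counts in replicates 1, 2 and 3, so most of its rise lay between replicates 1 and 2. Rmrp rose at each step, at 11029, 14267 and 20237 TPM.

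**Figure D4:**
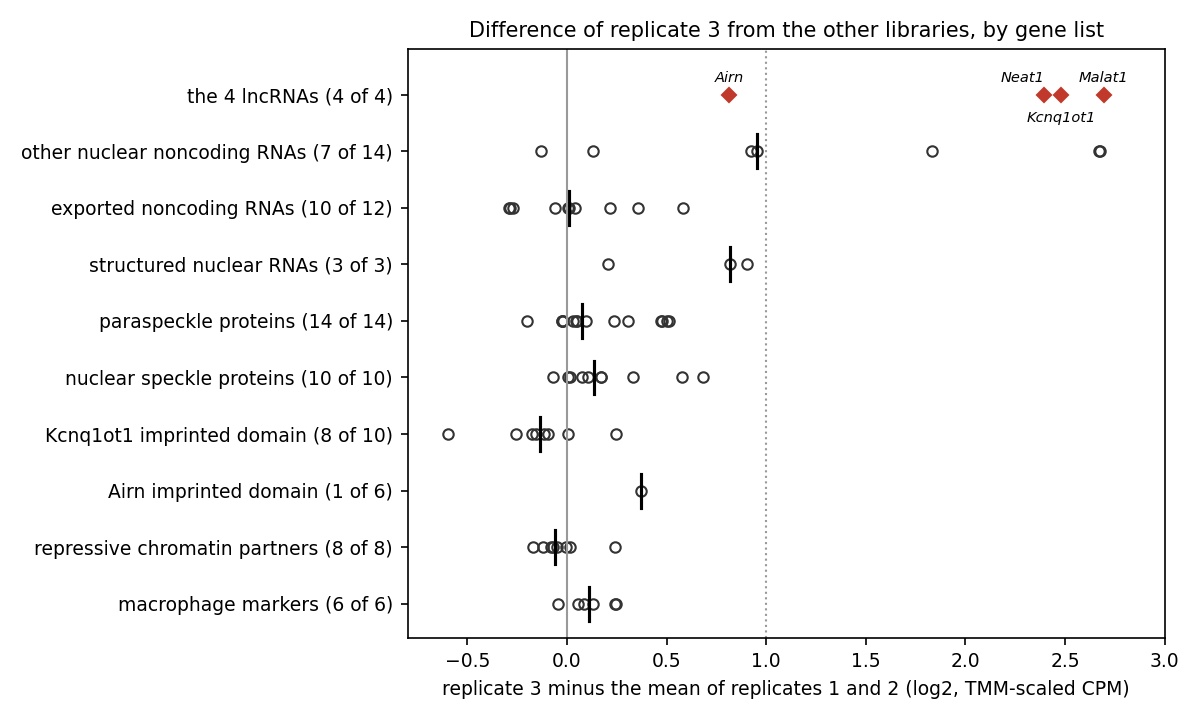
Difference of replicate 3 from the mean of replicates 1 and 2 in TMM-scaled log2 CPM, 1 point per gene past the filter (numbers in brackets), with list medians as bars, the median of all genes as the grey line and 2-fold as the dotted line. Malat1, Neat1 and Kcnq1ot1 lie between 2.40 and 2.69, with Snhg14 and Xist beside them at 2.68 and 2.67, and no exported noncoding RNA or messenger RNA of the listed proteins reaches 1.

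The shift extended to whole classes of genes. In replicate 3 the median gene differed from the mean of the other libraries by 2.10 on the log2 CPM scale over 22 small nuclear RNA genes, 1.38 over 12 sense-intronic genes, 1.19 over 151 unclassified (TEC) genes and 0.94 over 15 small nucleolar RNA genes. It differed by 0.28 over 221 lincRNA genes, the class of Malat1 and Neat1, by 0.31 over 206 antisense genes, the class of Kcnq1ot1 and Airn, and by -0.01 over 11235 protein-coding genes. Transcripts annotated as retained introns took 1.40%, 1.34% and 2.06% of the counts of protein-coding genes in replicates 1, 2 and 3, a measure added after the values were seen. The part that any of these plays in the levels of the 4 lncRNAs was not tested.

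**Figure D5:**
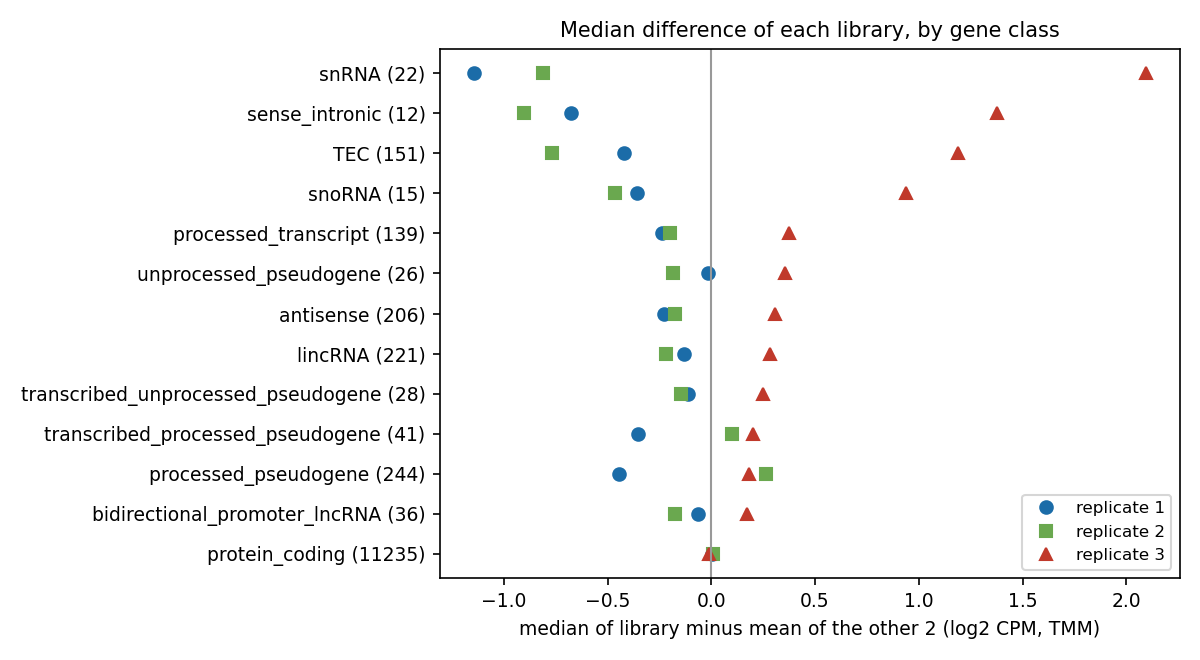
Median over the genes of each GENCODE class (number of genes in brackets) of each library minus the mean of the other libraries, in TMM-scaled log2 CPM. Replicate 3 is at 2.10 for small nuclear RNA genes and at -0.01 for protein-coding genes. Replicates 1 and 2 lie on the other side of 0 for small nuclear, sense-intronic, TEC and small nucleolar RNA genes. The differences of each gene sum to 0 over the libraries, so that side follows in part from the measure.

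All 6 macrophage markers had a TPM of at least 1, with summed levels of 5045 to 7208 TPM, and replicate 3 differed by -0.05 to 0.25 on the log2 CPM scale. Markers of T cells, B cells, erythroid cells and fibroblasts were below a TPM of 1 in each library, with Cd3e and Hbb-bs at 0 reads. The 4 neutrophil markers summed to 1.53 to 2.59 TPM and the 3 endothelial ones to 2.33 to 3.86, led by Ngp and Kdr. Ngp, a neutrophil granule gene, held 90, 110 and 254 reads and was 0.65 higher in replicate 3 on the log2 CPM scale. The other neutrophil markers did not pass the filter: Elane held 9, 10 and 8 reads, Camp 1, 3 and 11, and Cxcr2 5, 5 and 9. Kdr, a receptor gene of endothelial cells, differed by -0.57, Cdh5 by 0.195 and Pecam1 by -0.01. Fibroblast markers did not pass the filter: Col1a2 held 8, 10 and 32 reads, Col1a1 10, 7 and 30, and Pdgfrb 1, 2 and 9. Summed, they were at 0.722, 0.454 and 1.26 CPM in replicates 1, 2 and 3. The part of any of these cell types in the levels of the 4 lncRNAs was not tested.

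The noncoding genes most like each RNA across the libraries were named by the root mean square difference of their log2 CPM, centred on each gene's mean, over 3 libraries. For Malat1 these were Gm16907 (0.04), Gm48678 (0.13) and Gm26621 (0.17), with Neat1 itself at 0.17. For Neat1 they were Gm17491 (0.08), 4732440D04Rik (0.09) and Gm48678 (0.09). For Kcnq1ot1 they were Gm26853 (0.05), Xist (0.10) and Gm16185 (0.14), which like it were higher in replicate 1 than in replicate 2. For Airn they were Gm10602 (0.03), 6430573P05Rik (0.04) and Gm26735 (0.04), and 52 genes lay within 0.1 of it. Over 3 libraries such likeness is a description of the same 3 values.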

How the data were processed

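Levels came from 3 libraries. Tables follow mm10 and GENCODE M21 per the labels and deposited notes; aligner, quantifier versions and library strand are not given in the sources used here. Expected counts (estimated reads) and TPM were deposited by the authors per gene and transcript in RSEM-format columns, and again per transcript in kallisto-format columns. Isoform percent was deposited as a share of gene TPM, per the file headers, and recomputed here from TPM and counts. Expected counts summed to 26318761, 41897257 and 56290298 per library. They were then rounded and scaled with edgeR 4.0.16 (TMM, prior count 2, filterByExpr with 1 group), a step tested on simulated data. DESeq2 1.42.0 size factors were an alternative. Credibility bounds are the authors' deposited values. The members and lists were chosen with earlier results of these data known. Named genes were all members with their isoforms, genes sharing their exon bases, the 4 highest and the lowest of a list by mean TPM, and the 3 noncoding genes nearest each member; others named were chosen after their values were seen. With 1 group no test was run, since the smallest p of an exact sign-flip test is 0.25 at 3 libraries.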

Additional observations from a re-analysis of the deposited data

How the results depend on the processing

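The mean levels rest on replicate 3 and on the table: leaving out each replicate in turn gave 215.1 to 616 TPM for Malat1, 17.7 to 55.6 for Neat1, 0.035 to 0.10 for Kcnq1ot1 and 0.295 to 0.42 for Airn, and the kallisto-format tables gave means of 184, 17.8, 0.0425 and 0.391. TPM rescaled over protein-coding and long noncoding genes gave 2071 for Malat1, 184 for Neat1, 0.313 for Kcnq1ot1 and 1.44 for Airn, and the posterior mean gave 0.553 for Airn. By counts the share of short Neat1 was 65.5%. Leaving out each replicate in turn gave SDs in log2 CPM of 0.0117 to 1.91 for Malat1, 0.16 to 1.77 for Neat1 and 0.90 to 2.20 for Kcnq1ot1, the lowest without replicate 3. The SD on log2(TPM + 1) was 0.0903 for Kcnq1ot1 and 0.14 for Airn, and on log2(TPM + 0.1) it was 0.54 for Kcnq1ot1. Without the RNAs below a TPM of 1 in each library, the list medians were 3.98 TPM for nuclear and 8.81 for exported noncoding RNAs, and the exported median was 2.86 in kallisto-format TPM. The count of genes at least 2-fold higher in replicate 3, with alternatives chosen after seeing the data, ranged from 2 to 4. Depth limits Airn, with 14 reads in replicates 1 and 2, or 27.2 and 27.9 in the kallisto-format tables. No paired analysis was possible because there is 1 group.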
